A study of Homo sapiens with 37 samples.

Results

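The RNA collected around a peroxidase anchored at the endoplasmic reticulum (ER) was compared with the RNA collected around the same peroxidase fused to GFP. The comparison rests on 8 of the 37 libraries of the series. They are 2 streptavidin pulldowns and 2 inputs of cells carrying C1-APEX, set against 2 pulldowns and 2 inputs of cells carrying APEX-GFP. All 4 groups came from HEK293T cells, a human embryonic kidney line, with the stress condition Naive. By their labels the groups differed only in construct and fraction. Cells took up 500 µM biotin-phenol over 30 min before 1 mM H2O2 was added for 1 min, in all 4 groups. The labels do not say how the constructs were delivered, whether a line was 1 clone or whether replicates were separate cultures. Each p-value therefore reflects a spread between replicates that may be technical. Unless stated otherwise, that spread was estimated jointly with the naive libraries of the other constructs, not from the 8 compared libraries alone. The libraries were chosen by their labels. For each RNA, the difference studied was pulldown over input in C1 cells minus pulldown over input in GFP cells, called here the input-adjusted difference. The direct difference between pulldowns and the value of each C1 pulldown alone are given beside it.

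APEX is an engineered plant peroxidase that, given biotin-phenol and a pulse of H2O2, makes short-lived radicals that attach biotin to RNA and protein close to it. C1, which the labels do not define, is known as the membrane anchor of a liver cytochrome P450 that holds a fused protein on the cytosolic face of the ER, where ribosomes make secreted and membrane proteins. GFP has no targeting signal of its own, so its fusion serves as the untargeted reference for diffusible labelling. The design text of the series names differences within and between compartments as its question, and this comparison addresses the second kind. The files identify RNAs by versioned Ensembl gene IDs only, and 0 of 60483 IDs matched a symbol in the RefSeq gene table used here. Secretory mRNAs, mitochondrial mRNAs and other named groups were therefore not analysed here, the cell line was not checked against its markers, and 4 IDs are printed without a gene name. RNAs are grouped instead by level and by how they behaved in the pulldowns of other constructs.

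The C1 pulldowns held 1752869 and 2581655 counts and the GFP pulldowns 1718517 and 2155514. The C1 inputs held 1918014 and 1419968 counts and the GFP inputs 2270911 and 2341595. The 10 most abundant IDs of the table took 65.2% to 70.0% of counts in C1 pulldowns and 62.5% to 65.2% in GFP pulldowns, against 71.1% to 72.0% in C1 inputs and 68.7% to 69.5% in GFP inputs. That left 409888 to 774283 counts per library for all other IDs, which limits the precision of every value below. Of the IDs in the table, 12427 had enough counts to be tested.

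C1 pulldown 1 stood apart from the other libraries. Over the 2108 IDs with a mean of at least 5 log2 CPM (the log2 of counts scaled to a common library size, CPM), the C1 pulldowns correlated at 0.896, against 0.959 for the GFP pulldowns, 0.975 for the C1 inputs and 0.984 for the GFP inputs. C1 pulldown 1 correlated with the GFP pulldowns at 0.863 and 0.875, and C1 pulldown 2 at 0.911 and 0.915, which is closer than it came to its own partner. The C1 pulldowns differed by over 1 log2 unit at 147 of these IDs, or 6.97%, against 8 IDs, or 0.380%, for the GFP pulldowns. Of the 12427 tested IDs, 837 had no count in C1 pulldown 1 and 134 had none in C1 pulldown 2, against 146 in GFP pulldown 1 and 174 in GFP pulldown 2. There were 19 IDs with at least 50 counts in C1 pulldown 2 and at most 5 in C1 pulldown 1, 2 IDs with the reverse, and 0 of either kind between the GFP pulldowns. The cause was not tested. Results are given below with both C1 pulldowns and with each alone.

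Much of the enrichment over input was shared by C1 and GFP cells. Across the 2108 IDs, the log2 ratio of pulldown to input in C1 cells correlated with that in GFP cells at a Pearson r of 0.763 and a Spearman rho of 0.680. At a mean of at least 7 log2 CPM the values were 0.922 and 0.876 over 244 IDs. These ratios share no library but share the composition of the total RNA, and IDs are not independent replicates. Of the tested IDs, 6.45% were called in the C1 pulldown over input, 2.89% higher and 3.56% lower, against 4.04% in GFP, 1.95% higher and 2.09% lower (edgeR quasi-likelihood test, adjusted p under 0.05). Of the 359 IDs called higher in the C1 pulldown, 95 were also called higher in the GFP pulldown. They made up 26.5% of the C1 list and 39.3% of the 242 IDs of the GFP list. Of the 443 IDs called lower in the C1 pulldown, 125 were also called lower in GFP, 28.2% of the C1 list and 48.1% of the 260 IDs of the GFP list. No ID was called in opposite directions in the 2 constructs.

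After subtracting that shared enrichment, no ID passed the test. Called IDs numbered 0 of 12427 (0%) for the input-adjusted difference (edgeR quasi-likelihood test, Benjamini-Hochberg adjustment over all tested IDs), and the smallest adjusted p was 0.0786. At an unadjusted p under 0.05 there were 1045 IDs (8.41%), 503 higher (4.05%) and 542 lower (lower (4.36%) in C1 than in GFP. DESeq2 and limma with sample weights also called 0. The differences centred on 0, with a median of -0.0046 log2 units, lower and upper quartiles of -0.45 and 0.48, and 5th and 95th percentiles of -1.46 and 1.58. The median standard error was 0.63 log2 units over all tested IDs. The median standard error was 1.04 for IDs under 3 log2 CPM, 0.55 from 3 to 5, 0.32 from 5 to 7 and 0.20 at 7 or more, and the share with an unadjusted p under 0.05 was 7.75% in the lowest class and 12.7% in the highest. The RNAs measured most precisely held the largest share of small p-values.

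In 40.3% of the tested IDs the 2 C1 values of pulldown minus mean input did not overlap the 2 GFP values, with C1 higher in 19.9% and lower in 20.4%. ENSG00000105887.10 had the smallest p among such lower IDs of at least 5 log2 CPM, and no adjusted p of the comparison was smaller. Its normalised level was 43.9 and 44.1 CPM in the C1 pulldowns, against 91.4 and 94.3 CPM in the GFP pulldowns. In the inputs it was 91.1 and 88.5 CPM in C1 cells and 75.3 and 83.4 CPM in GFP cells. The C1 pulldowns were the 2 lowest of the 8 libraries, while the inputs of both cell populations lay near each other. Its pulldown stood -1.02 and -1.01 log2 units from the mean of its inputs in the 2 C1 pulldowns, and 0.20 and 0.25 in the 2 GFP pulldowns. The input-adjusted difference was -1.26 ± 0.24 log2 units (SE; edgeR adjusted p = 0.0786), and the direct difference between pulldowns was -1.08 ± 0.17 (edgeR adjusted p = 0.000518). With limma and sample weights the direct difference was -1.07 and no longer called (adjusted p = 0.106). By that fit the input-adjusted difference had an adjusted p of 0.855, and by edgeR on the 8 compared libraries alone 0.952. Without a count filter it was 0.0447 by edgeR. The input-adjusted difference was -1.29 log2 units with C1 pulldown 1 alone and -1.27 with C1 pulldown 2 alone. In CBX1, eIF4E and eIF4A cells the pulldown over input of this ID was -0.0079 ± 0.16, -0.12 ± 0.17 and 0.082 ± 0.17 log2 units (SE; edgeR adjusted p = 0.989, 0.832 and 0.919).

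ENSG00000102900.11 had the smallest p among the higher IDs chosen in the same way. Its level was 51.6 and 38.1 CPM in the C1 pulldowns, against 38.4 and 33.6 CPM in the GFP pulldowns. In the inputs it was 22.2 and 24.7 CPM in C1 cells, against 47.2 and 46.3 CPM in GFP cells. The pulldowns overlapped between the constructs and the inputs did not. The input-adjusted difference of 1.31 ± 0.31 log2 units (SE; edgeR adjusted p = 0.258) was the sum of a direct pulldown difference of 0.31 ± 0.21 (edgeR adjusted p = 0.390) and the negative of an input difference of -1.0 ± 0.23 (edgeR adjusted p = 0.0562). With C1 pulldown 1 alone it was 1.49 ± 0.33 (adjusted p = 0.00497 by edgeR), and with C1 pulldown 2 alone 1.07 ± 0.33 (adjusted p = 0.201 by edgeR). With both pulldowns it was not called.

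**Figure D1:**
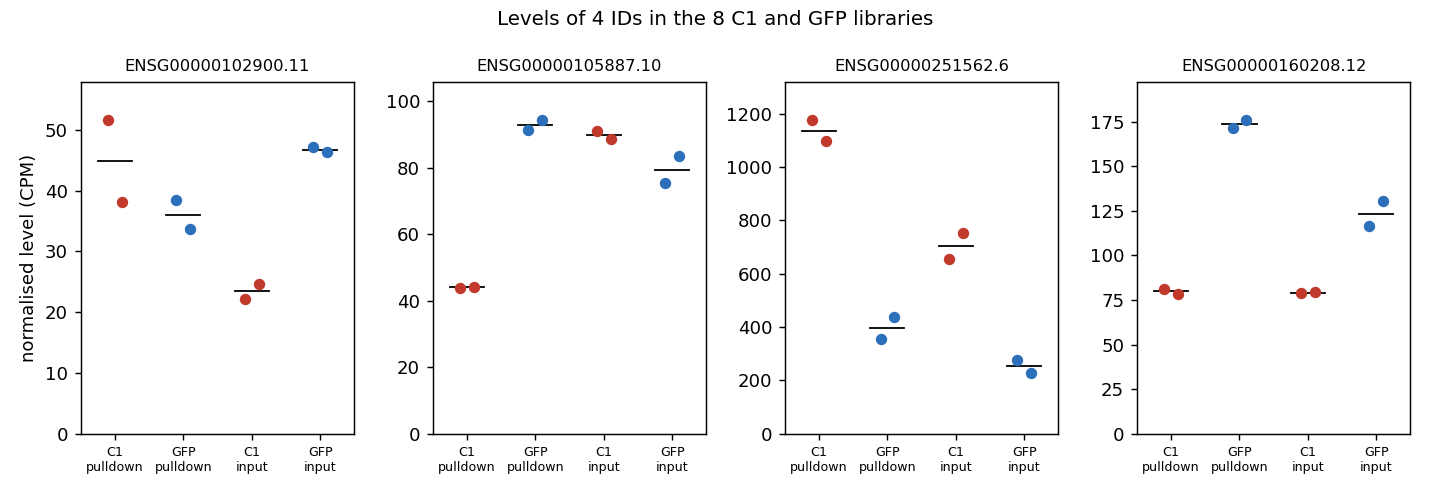
Normalised level in CPM (linear axis from 0) of 4 IDs in the C1 and GFP pulldowns and inputs. Points are libraries and lines are means of 2. ENSG00000105887.10 was low in both C1 pulldowns, at 43.9 and 44.1 CPM, and ENSG00000251562.6 was high in both the C1 pulldowns and the C1 inputs.

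Between pulldowns, without input adjustment, the number of RNAs that differed depended on the fit. Called IDs numbered 833 of 12427 (6.70%), 409 higher (3.29%) and 424 lower (3.41%) in C1, with median log2 differences of 1.49 and -1.05 (edgeR, adjusted p under 0.05). The count was 486 with DESeq2, 63 with edgeR on the 8 compared libraries alone and 34 with limma and sample weights. At an unadjusted p under 0.05 the share was 23.8%, 11.8% higher and 12.1% lower. The share called grew with level. It was 4.26% of IDs under 3 log2 CPM, 5.52% from 3 to 5, 12.7% from 5 to 7 and 34.4% at 7 or more. The balance of directions changed with level too: 126 higher and 68 lower under 3 log2 CPM, 183 and 135 from 3 to 5, 71 and 166 from 5 to 7, and 29 and 55 at 7 or more. Scaled by library size instead of by TMM (edgeR's trimmed mean of M-values), the comparison gave 1136 calls, of which 18.8% were higher, against 49.1% by TMM, and the median of all IDs moved to -0.21, so directions are relative to the TMM reference. The count was 3711 without C1 pulldown 2, 357 without GFP pulldown 1 and 269 without GFP pulldown 2. It was 752 without C1 pulldown 1, of which 397 were among the 833.

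The libraries of C1 and GFP pulldowns did not overlap in 41.2% of tested IDs, with C1 higher in 19.9% and lower in 21.3%. Among those of at least 5 log2 CPM, ENSG00000251562.6 had the smallest p of the higher IDs. It measured 1176 and 1097 CPM in the C1 pulldowns, against 357 and 438 CPM in the GFP pulldowns. In the inputs it measured 654 and 752 CPM in C1 cells, against 278 and 227 CPM in GFP cells. Both fractions of C1 cells lay above both fractions of GFP cells. The direct pulldown difference was 1.52 ± 0.15 log2 units (SE; edgeR adjusted p = 2.18e-06) and the input difference 1.48 ± 0.16 (SE; edgeR adjusted p = 5.70e-06), which left an input-adjusted difference of 0.040 ± 0.22 (SE; edgeR adjusted p = 0.983). The direct difference was 1.53 with C1 pulldown 1 alone and 1.44 with C1 pulldown 2 alone. The sign of the input-adjusted value flipped in 5 of 16 alternative settings, library-size scaling among them. In CBX1 cells, where the peroxidase is fused to a chromatin protein, the pulldown held 697 ± 161 CPM and the input 197 ± 7.62 CPM (SD, n = 2), and the CBX1 and GFP inputs held the lowest means of the 5 constructs.

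ENSG00000160208.12 had the smallest p of the lower IDs chosen in the same way. It measured 81.2 and 78.4 CPM in the C1 pulldowns, against 172 and 176 CPM in the GFP pulldowns. In the inputs it measured 78.8 and 79.7 CPM in C1 cells, against 117 and 131 CPM in GFP cells. Pulldown and input lay together in C1 cells, and the GFP pulldowns were the highest of these 8 libraries. The direct pulldown difference was -1.12 ± 0.15 log2 units (SE; edgeR adjusted p = 8.41e-05), the input difference -0.64 ± 0.15 (edgeR adjusted p = 0.0644) and the input-adjusted difference -0.48 ± 0.21 (edgeR adjusted p = 0.533). With each C1 pulldown alone the direct difference was -1.14 and -1.17.

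Part of the difference between pulldowns was also present between inputs. Over the 2108 IDs, the direct pulldown difference and the input difference, which share no library, correlated at 0.565, and 71.3% of IDs had the same sign in both. Of the 409 IDs called higher between pulldowns, 330 (80.7%) were higher between inputs as well, and of the 424 called lower, 350 (82.5%) were lower between inputs. Over all 12427 IDs the share of equal signs was 61.9%. The median input difference was 0.42 log2 units for the higher IDs and -0.33 for the lower ones, against median pulldown differences of 1.49 and -1.05. These IDs were chosen by their pulldown difference, which enlarges the pulldown medians. The gap between the medians therefore does not measure a difference particular to the pulldowns. Between inputs themselves 41 IDs were called (0.330%), 21 higher (0.169%) and 20 lower (0.161%) in C1. That count was 7 to 10 with any 1 of the 4 inputs left out, and 154 and 161 without C1 pulldown 1 and 2.

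**Figure D2:**
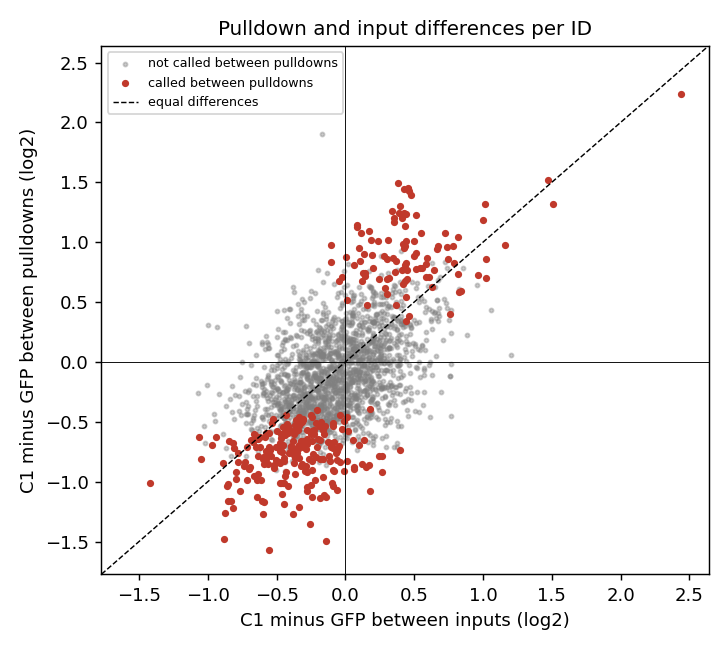
C1 minus GFP between inputs (horizontal) and between pulldowns (vertical), in log2 units, for the 2108 IDs with a mean of at least 5 log2 CPM. Red points were called between pulldowns and the dashed line marks equal differences. Most red points lie in the 2 quadrants of equal sign. They were chosen by the vertical axis, so their distance from 0 on it follows from that choice.

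The difference was then measured in 2 sets of libraries that share none, the libraries numbered 1 and those numbered 2. The numbers do not pair libraries, so each set is simply 1 library of each group. Over the 2108 IDs the input-adjusted differences of the sets correlated at 0.064 (Pearson) and 0.057 (Spearman), and 51.9% of IDs had the same sign. The direct pulldown differences correlated at 0.312 and 0.273 with 61.9% of equal signs, and the input differences at 0.605 and 0.590 with 72.0%. At a mean of at least 7 log2 CPM the Pearson values were 0.372 for the input-adjusted, 0.645 for the direct and 0.857 for the input difference over 244 IDs. The 100 IDs with the highest input-adjusted difference in set 1 had a median of 1.05 log2 units there and 0.17 in set 2, where 63 were higher. The 100 highest of set 2 had a median of 0.93 there and -0.13 in set 1, where 41 were higher. The 100 lowest of set 1 and of set 2 had medians of -1.33 and -0.99 in their own set, and 0.0043 and -0.092 in the other. For the direct pulldown difference the 100 highest of set 1 had a median of 1.16 there and 0.50 in set 2, where 79 were higher, and the 100 lowest had -1.46 and -0.31, with 72 lower. Most leading IDs of the direct difference therefore kept their direction in libraries not used to choose them. Those of the input-adjusted difference did so for about as many IDs as did not.

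**Figure D3:**
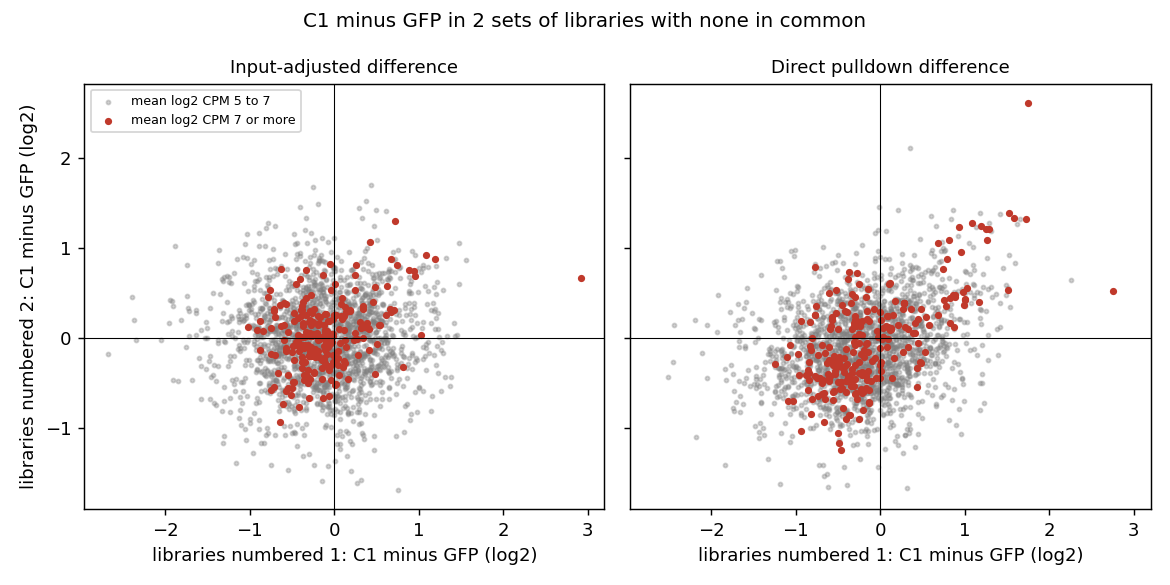
C1 minus GFP in the libraries numbered 1 (horizontal) and numbered 2 (vertical), in log2 units, per ID, for the input-adjusted difference (left) and the direct pulldown difference (right). Red points have a mean of 7 log2 CPM or more. The points form a round cloud on the left, with a Pearson r of 0.064 over 2108 IDs, and an elongated one on the right, with 0.312.

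Each C1 pulldown was then set against GFP alone, with the other left out. C1 pulldown 1 alone gave 993 called IDs of 14003 (7.09%) for the input-adjusted difference, 223 higher (1.59%) and 770 lower (5.50%). C1 pulldown 2 alone gave 14 of 13385 (0.105%), 6 higher (0.0448%) and 8 lower (0.0598%) (edgeR, adjusted p under 0.05). Directly between pulldowns, C1 pulldown 1 alone gave 3711 IDs (26.5%), 1609 higher (11.5%) and 2102 lower (15.0%). C1 pulldown 2 alone gave 752 (5.62%), 364 higher (2.72%) and 388 lower (2.90%). The standard deviation of the input-adjusted log2 difference over IDs was 2.39 for C1 pulldown 1 and 1.35 for C1 pulldown 2. With a C1 pulldown left out, an ID needed enough counts in only 1 library to be tested, which could be the lone pulldown itself. These fits tested 14003 and 13385 IDs, against 12427 with both C1 pulldowns. Their counts and standard deviations therefore rest on different sets of IDs. Such a fit has no replicate in the C1 pulldown group and assumes that the lone library varies like the other groups. Its common dispersion, the squared variation between replicates that edgeR estimates over all IDs, was 0.020 with either C1 pulldown left out, against 0.034 with both and 0.037 to 0.043 with 1 of the other 6 libraries left out. The calls of a lone pulldown compare that library with GFP and carry no error between C1 pulldowns.

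**Figure D4:**
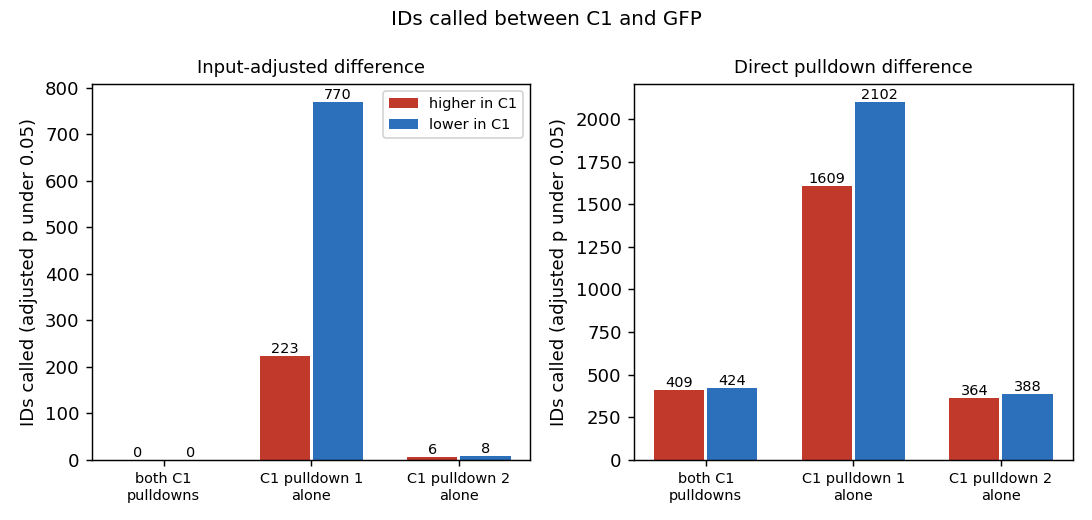
Number of IDs called higher (red) or lower (blue) in C1 than in GFP at an adjusted p under 0.05, for the input-adjusted difference (left) and the direct pulldown difference (right), with both C1 pulldowns and with each alone. The vertical scales of the panels differ. C1 pulldown 1 alone gave 993 input-adjusted calls, C1 pulldown 2 alone 14, and both together 0.

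The RNAs that other constructs enriched or depleted over their own inputs gave further groups. The levels in C1 and GFP libraries did not enter those pulldown-over-input differences. The count filter, the scaling and the dispersion of each ID did use them, since all naive libraries were fitted together. Membership of a list and calls between C1 and GFP are therefore not independent. CBX1 binds chromatin in the nucleus, while eIF4E, which holds the 5′ cap of mRNAs, and the RNA helicase eIF4A act together in starting translation. The groups were chosen after results of these data were known, so they are described by counts and medians with no test. The eIF4E and eIF4A lists overlap: they share 77 higher IDs, 50.7% of the eIF4E and 53.5% of the eIF4A list, and 99 lower IDs, 61.9% and 78.0%.

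The RNAs enriched by eIF4A or eIF4E had a lower median pulldown over input in C1 than in GFP cells. The 144 IDs called higher in the eIF4A pulldown than in its input had a median pulldown over input of 0.64 and 0.51 log2 units in the 2 C1 pulldowns, against 0.80 and 0.78 in the 2 GFP pulldowns. The 152 IDs higher in the eIF4E pulldown had 0.57 and 0.61 in C1, against 0.80 and 0.81 in GFP. In both lists the C1 libraries lay below the GFP libraries without overlap. The lists share 77 IDs, and of single tested IDs 20.4% had C1 below GFP without overlap. The median input-adjusted difference was -0.16 for the eIF4A list and -0.13 for the eIF4E list, against -0.0046 over all tested IDs and -0.070 over the 2108 IDs of at least 5 log2 CPM. The last is the nearer in level, since the lists had median levels of 6.07 and 5.96 log2 CPM, against 3.52 for all tested IDs. No member was called, and no other tested ID was either. At an unadjusted p under 0.05 the eIF4A list held 6 higher and 22 lower IDs and the eIF4E list 5 higher and 25 lower. The backgrounds over all tested IDs were the 4.05% and 4.36% given above. From 5 to 7 log2 CPM, the level of these lists, the share was 10% for both directions together. With C1 pulldown 1 and 2 alone the eIF4A median was -0.20 and -0.25 and the eIF4E median -0.19 and -0.16, where the median of all tested IDs was -0.12 with C1 pulldown 1 alone and -0.015 with C1 pulldown 2 alone. Both medians stayed below 0 in 16 of 16 alternative settings, which reuse most of the same libraries. In some of these the median of all tested IDs was below 0 too. Under library-size scaling it was -0.084, and the lists had -0.227 and -0.222. Directly between pulldowns, 9 eIF4A-list IDs were called higher and 15 lower, and 11 and 14 of the eIF4E list, against 71 higher and 166 lower of the 1864 tested IDs from 5 to 7 log2 CPM. The lists' direct medians were -0.14 and -0.089, no lower than the -0.158 of the 2108 IDs of at least 5 log2 CPM. Their median input differences were 0.090 and 0.0995, against -0.082 over those 2108 IDs. The lists thus stood below those IDs after input adjustment and above them in the inputs, but not below them between pulldowns.

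For RNAs depleted by the initiation factors the C1 and GFP libraries overlapped. The 127 IDs called lower in the eIF4A pulldown had a median pulldown over input of -0.97 and -0.73 log2 units in the C1 pulldowns, against -1.07 and -0.95 in the GFP pulldowns. The 160 IDs lower in the eIF4E pulldown had -0.94 and -0.70 in C1, against -1.08 and -0.87 in GFP. The median input-adjusted difference was 0.14 in both lists. At an unadjusted p under 0.05 the eIF4A list held 21 higher and 1 lower ID and the eIF4E list 20 and 2. The shares over all tested IDs were 4.05% higher and 4.36% lower. The lists had median levels of 6.15 and 5.71 log2 CPM, and from 5 to 7 the share was 10% for both directions together. With C1 pulldown 2 alone the medians were 0.26 and 0.25, and with C1 pulldown 1 alone -0.040 and -0.055. Both lists lay above the medians of all tested IDs in the same fits, which were -0.015 with C1 pulldown 2 alone and -0.12 with C1 pulldown 1 alone. Directly between pulldowns, 34 of the 127 were called higher and 1 lower, and 33 of the 160 higher and 4 lower. The shares over all tested IDs were 3.29% and 3.41%, and from 5 to 7 log2 CPM 71 of 1864 were called higher and 166 lower. The lists' median input differences were 0.136 and 0.128, against -0.082 over the 2108 IDs of at least 5 log2 CPM. The median direct differences were 0.15 and 0.12, and -0.064 and -0.098 under library-size scaling, which moved the median of all tested IDs to -0.207, against 0.012 by TMM. Under both scalings the lists lay above that median.

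The RNAs enriched by the chromatin construct had a higher median pulldown over input in both C1 pulldowns than in both GFP pulldowns. Of single tested IDs, 19.9% had C1 above GFP without overlap. The 199 IDs called higher in the CBX1 pulldown had a median pulldown over input of 0.72 and 0.65 log2 units in the C1 pulldowns, against 0.50 and 0.58 in the GFP pulldowns. Their median input-adjusted difference was 0.040, with 14 higher and 14 lower IDs at an unadjusted p under 0.05, against 4.05% and 4.36% of all tested IDs. Under library-size scaling it was -0.021, where the median of all tested IDs was -0.084. It was 0.163 without GFP pulldown 2, 0.102 without C1 input 2 and 0.097 without GFP input 2, where the medians of all tested IDs were 0.060, 0.037 and -0.0052. Directly between pulldowns 21 were called higher and 2 lower, against 3.29% and 3.41% of all tested IDs, with a median of 0.31, and the median input difference of these IDs was 0.20. The 287 IDs lower in the CBX1 pulldown had -0.91 and -0.57 in the C1 pulldowns, against -0.63 and -0.76 in the GFP pulldowns. Their median input-adjusted difference was -0.033 with both C1 pulldowns, -0.21 with C1 pulldown 1 alone and 0.087 with C1 pulldown 2 alone. The medians of all tested IDs in these fits were -0.0046, -0.12 and -0.015. With both C1 pulldowns the 2108 IDs of at least 5 log2 CPM, nearer to this list's median level of 5.8, had -0.070.

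**Figure D5:**
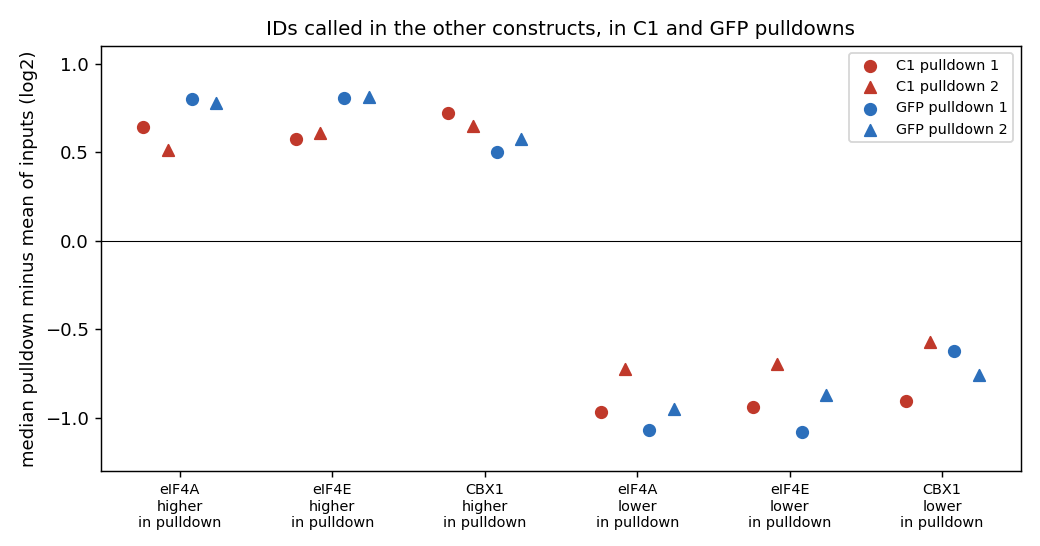
Median log2 pulldown minus the mean of the same construct's inputs, in each C1 (red) and GFP (blue) pulldown, for IDs called higher or lower in the pulldown of eIF4A, eIF4E or CBX1 over input. Circles are replicate 1 and triangles replicate 2. Among single tested IDs, the 2 C1 and 2 GFP values did not overlap in 40.3%. Both C1 libraries lie below both GFP libraries for the eIF4A and eIF4E lists of higher IDs and above them for the CBX1 list of higher IDs, and C1 and GFP libraries overlap for all 3 lists of lower IDs.

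The 10 most abundant IDs of the table gave no call. Their median pulldown over input was -0.39 and -0.070 log2 units in the C1 pulldowns, against -0.46 and -0.26 in the GFP pulldowns. Of the 10, 0 were called between pulldowns and 0 after input adjustment (edgeR), and 0 had an unadjusted p under 0.05 after input adjustment. Between pulldowns, 6.70% of all tested IDs were called, and 34.4% of those at 7 or more log2 CPM. After input adjustment no tested ID was called. The share with an unadjusted p under 0.05 there was 8.41% over all tested IDs and 12.7% at 7 or more log2 CPM.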

How the data were processed

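Whole-number counts per Ensembl gene ID were deposited by the authors, made with cutadapt, HISAT2 and featureCounts on GRCh38, per the submitters' processing notes. The sources used here give no versions, annotation, strand setting or rule for multiply mapped reads, so IDs that overlap or share near-identical copies are uncertain. No molecular identifiers are named, so amplified copies count as separate reads.

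Counts of the 20 naive libraries (5 constructs, 2 fractions, 2 each) were fitted together in R 4.3.3 by edgeR 4.0.16, using a robust quasi-likelihood F test after filterByExpr and TMM scaling, with 1 mean per group, 10 residual degrees of freedom, Benjamini-Hochberg adjustment and a threshold of 0.05. Standard errors were taken as the absolute log2 difference over the root of F. Log2 CPM used a prior count of 2. The 17 columns of the stress table were not used. One eIF4A input column carries a name found under 2 samples, and was taken as naive replicate 2. DESeq2 1.42.0 and limma 3.58.1 were alternatives. Replicate pairs differed beyond counting noise (chi-square per ID 1.31 to 9.20), so none was counted as 1 sample. The IDs, lists and groups were chosen with earlier results of these data known. The rule for named genes and the gene lists need symbols and could not be applied. Printed IDs are those with the smallest p in each direction of the input-adjusted and direct differences, with a mean of at least 5 log2 CPM and no overlap between libraries, chosen after their values were seen.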

Additional observations from a re-analysis of the deposited data

How the results depend on the processing

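Counts are called IDs. Fits with 1 library left out kept each ID with enough counts in 1 library, so they tested more IDs than the fit reported. For the input-adjusted difference, 0 in the fit reported, 1 ID was called under library-size scaling and 3 with every ID of at least 1 count kept, all lower in C1, and 0 to 993 with 1 C1 or GFP library left out. It stayed 0 with DESeq2, limma with sample weights, only the 8 libraries, the 10 most abundant IDs left out, and a replicate block, where the labels give the numbers no shared origin and deviations of same-numbered libraries correlated between -0.061 and 0.055. The direct pulldown count of 833 was 486 with DESeq2, 34 with limma and sample weights, 63 with only the 8 libraries, 759 with the replicate block, and 269 to 3711 with 1 library left out. The DESeq2 and limma calls were all among the 833, as were the 63. The input count of 41 was 64 with DESeq2, 450 with limma and sample weights, 65 without a count filter, 4 with only the 8 libraries, and 7 to 161 with 1 library left out; 35.9% of the 64 and 21.2% of the 33 with library size were higher, against 51.2%. The count of 14 for C1 pulldown 2 alone was 2 with library size. Leaving out the eIF4A input of uncertain column name, an alternative added after seeing the data, gave 0, 702 and 39 for the 3 differences.

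The input-adjusted value of ENSG00000251562.6 ranged from -0.12 to 0.191 with 1 library left out; it was -0.021 with library size, -0.089 without C1 input 1, -0.12 without GFP input 1 or GFP pulldown 1 and -0.025 without C1 pulldown 1. The call of ENSG00000105887.10 between pulldowns was lost with limma and sample weights (-1.07, adjusted p = 0.106). Its input-adjusted p passed the threshold without a count filter (edgeR adjusted p = 0.0447). It did not pass with library size (edgeR adjusted p = 0.295), with only the 8 libraries (edgeR, 0.952), with DESeq2 (0.176) or with limma and sample weights (0.855). With the replicate block it was 0.0929, and with the 10 most abundant IDs left out 0.0693 (edgeR). The difference itself lay between -1.25 and -1.33 log2 units in these settings. Group medians that changed sign, all added after seeing the data, were as follows. The input-adjusted median of CBX1-lower IDs was 0.087 without C1 pulldown 1 and 0.024 without GFP pulldown 1, and their direct median was 0.058 without C1 pulldown 1. Without C1 pulldown 2 the input-adjusted medians of eIF4E-lower and eIF4A-lower IDs were -0.055 and -0.040, and the direct median of eIF4E-lower IDs was -0.00017. Under library-size scaling the median of all tested IDs moved to -0.084 input-adjusted and -0.207 direct. The CBX1-higher input-adjusted median of -0.021 and the eIF4E-lower and eIF4A-lower direct medians of -0.098 and -0.064 changed sign with it and stayed above it. Without C1 pulldown 2 the medians of all tested IDs were -0.12 and -0.100. The gene lists and protein classes could not be run. With 1 library left out the medians ranged, input-adjusted then direct, from -0.207 to 0.087 and -0.3 to 0.058 for CBX1-lower, from -0.055 to 0.251 and -0.00017 to 0.273 for eIF4E-lower and from -0.040 to 0.259 (input-adjusted) for eIF4A-lower IDs. The median standard error was highest for IDs under 3 log2 CPM, the IDs with the fewest counts.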
